A study of Sus scrofa with 6 samples.

Results

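MEIS1, MEIS2, PBX2, PBX3, PKNOX1 and PKNOX2 encode 6 homeodomain proteins of the TALE class (named for an amino acid loop extension), which act as partners of the HOX factors. Their chromatin accessibility was taken from every peak that touched the gene body or the 2 kb before the gene start in the pig assembly Sscrofa11.1. These 6 gene windows, of 27785 in the annotation, held 765 of the 1047483 peaks called in 6 libraries. After overlapping peaks were merged across libraries there were 202 regions of 294825 in all. MEIS1 had 39 of them, MEIS2 41, PKNOX1 7, PKNOX2 83, PBX2 3 and PBX3 29. A peak was present in every library at 58 of the 202 regions (28.7%, beside 26.6% of all regions), and only these were tested one by one.

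TALE proteins carry a homeodomain with a loop longer by a few residues than that of HOX proteins. PBX proteins bind DNA together with HOX proteins, and MEIS and PKNOX (also called PREP) proteins bind PBX through a conserved domain near their N terminus, which helps to hold PBX in the nucleus. In the embryonic trunk such complexes are known for their part in segment identity along the body axis, and PBX with MEIS is known to bind regulatory sequence of muscle genes together with the myogenic factor MYOD.

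Accessibility was measured by single-cell ATAC-seq, where Tn5 transposase cuts DNA at open chromatin and the fragments of a nucleus share a barcode, in pig embryos for which the labels give no treatment or genetic change. Somites were collected at embryonic day 18 (E18) and day 21 (E21) and myotomes at day 28 (E28), from Tibetan pigs (ZZ) and from Duroc×Tibetan crosses (DZ). Each of the 6 combinations of stage and breed was 1 library, and each library was a pool of embryos from the same sow. The 2 libraries of a stage were therefore its only replicates, they differed in breed, and stage and tissue cannot be told apart at E28.

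Of 64439 barcodes, the 58809 holding 2000 to 30000 counts were used, with between 89816504 and 133037579 counts of Tn5 cut sites in a library. Any pair of libraries shared between 113 and 157 kept barcodes, at most 1.66% of the smaller library. The E18 libraries had 217138 (ZZ) and 199846 (DZ) called peaks, the E21 libraries 171898 and 188857, and the E28 libraries 131975 and 137769. Counts exist only inside peaks called in the same library, so a region without a called peak has no measurement there. Levels are given as CPM, the counts scaled to 1e6 kept counts of the library. Markers of myogenic, somite, sclerotome, endothelial, neural, epithelial and blood cells had counts in every library except for GATA1, an erythroid factor without a peak. MYOG, the myogenic factor of differentiating cells, had a higher window level at E28 than at E18 (log2 fold change 1.53, adjusted p = 0.00841). PAX3, a factor of muscle precursors, had a lower level (log2 fold change -0.83, adjusted p = 0.00813). Of the 6 myogenic marker windows only MYOG was called higher and only PAX3 lower, where 20.8% and 22.0% of all windows were. The median log2 fold change of the 6 was -0.02, beside -0.04 over all windows.

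Sequences are shown for the promoter whose level rose most, for the other promoter called higher that has no annotated exon in the window, for 3 intron regions that gained accessibility, for the MEIS2 intron region that lost most, and for 3 that had peaks at a single stage. They were read from the RefSeq assembly Sscrofa11.1 along the strand of the gene, and cover the 250 bases before the annotated start or 300 bases around the middle of the strongest peak. Capitals mark matches to TGACAG, the sequence bound by MEIS and PKNOX proteins, to TGATTGAC, a PBX site followed by the start of a MEIS or PKNOX site, and to TGATTNAT, a PBX and HOX site. All were searched on both strands. In the names of the sequences, gained and lost are relative to E18. A match to TGATTGAC that continues with AG also holds TGACAG.
PKNOX2 promoter, chr9:52302772-52303021, plus strand: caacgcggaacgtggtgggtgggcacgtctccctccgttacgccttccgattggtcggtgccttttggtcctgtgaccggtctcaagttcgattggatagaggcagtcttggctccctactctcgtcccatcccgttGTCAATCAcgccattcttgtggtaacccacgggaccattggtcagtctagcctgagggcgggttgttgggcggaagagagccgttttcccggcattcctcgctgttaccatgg
PBX3 promoter, chr1:266383061-266383310, plus strand: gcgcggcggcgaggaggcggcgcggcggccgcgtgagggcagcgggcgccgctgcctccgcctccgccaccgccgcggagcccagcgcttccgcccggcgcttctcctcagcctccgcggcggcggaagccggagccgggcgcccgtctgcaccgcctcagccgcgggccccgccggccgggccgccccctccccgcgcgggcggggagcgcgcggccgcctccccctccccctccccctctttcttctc
MEIS1 intron region gained at E28, chr3:75502752-75503051, minus strand: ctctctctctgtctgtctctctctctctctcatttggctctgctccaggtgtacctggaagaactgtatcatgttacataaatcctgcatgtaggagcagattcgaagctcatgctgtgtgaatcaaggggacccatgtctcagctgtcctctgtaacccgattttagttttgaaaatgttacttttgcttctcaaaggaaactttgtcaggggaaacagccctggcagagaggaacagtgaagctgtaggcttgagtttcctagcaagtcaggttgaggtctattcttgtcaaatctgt
PBX3 intron region gained at E21, chr1:266548466-266548765, plus strand: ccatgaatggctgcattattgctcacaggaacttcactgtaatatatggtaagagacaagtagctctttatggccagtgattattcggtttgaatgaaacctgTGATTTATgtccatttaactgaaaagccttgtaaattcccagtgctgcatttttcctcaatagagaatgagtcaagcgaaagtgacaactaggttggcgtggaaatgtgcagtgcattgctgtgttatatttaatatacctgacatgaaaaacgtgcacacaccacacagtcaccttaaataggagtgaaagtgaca
PKNOX2 intron region gained at E21, chr9:52559796-52560095, plus strand: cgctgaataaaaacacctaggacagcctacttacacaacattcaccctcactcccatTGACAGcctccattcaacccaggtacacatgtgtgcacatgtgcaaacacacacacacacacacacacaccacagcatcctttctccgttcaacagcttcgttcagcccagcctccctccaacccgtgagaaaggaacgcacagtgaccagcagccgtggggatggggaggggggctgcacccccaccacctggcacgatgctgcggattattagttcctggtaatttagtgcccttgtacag
MEIS2 intron region lost by E28, chr1:134094056-134094355, plus strand: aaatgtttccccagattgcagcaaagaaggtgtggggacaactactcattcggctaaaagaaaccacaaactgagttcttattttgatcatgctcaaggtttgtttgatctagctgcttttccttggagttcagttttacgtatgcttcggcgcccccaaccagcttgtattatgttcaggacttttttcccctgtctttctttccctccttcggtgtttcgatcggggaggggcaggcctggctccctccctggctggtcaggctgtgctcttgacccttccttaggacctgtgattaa
MEIS1 intron region with peaks at E18 only, chr3:75555216-75555515, minus strand: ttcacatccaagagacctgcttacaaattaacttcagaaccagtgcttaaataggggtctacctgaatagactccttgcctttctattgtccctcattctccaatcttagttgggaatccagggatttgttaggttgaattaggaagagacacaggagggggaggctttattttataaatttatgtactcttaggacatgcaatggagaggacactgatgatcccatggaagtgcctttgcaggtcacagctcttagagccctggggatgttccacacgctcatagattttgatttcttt
MEIS2 intron region with peaks at E21 only, chr1:134220053-134220352, plus strand: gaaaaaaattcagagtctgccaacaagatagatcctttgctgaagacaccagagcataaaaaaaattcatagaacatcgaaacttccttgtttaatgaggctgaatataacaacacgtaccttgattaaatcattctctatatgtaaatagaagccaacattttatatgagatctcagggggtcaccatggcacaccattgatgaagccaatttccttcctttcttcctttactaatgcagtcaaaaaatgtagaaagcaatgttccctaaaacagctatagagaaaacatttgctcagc
PKNOX2 intron region with peaks at E28 only, chr9:52331637-52331936, plus strand: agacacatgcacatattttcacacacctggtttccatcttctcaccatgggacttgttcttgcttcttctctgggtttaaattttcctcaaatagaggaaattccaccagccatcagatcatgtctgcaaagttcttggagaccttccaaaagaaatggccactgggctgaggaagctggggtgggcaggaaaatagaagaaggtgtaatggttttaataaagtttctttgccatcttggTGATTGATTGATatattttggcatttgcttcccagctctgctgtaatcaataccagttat

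The PKNOX2 promoter held a match to TGATTGAC, which 0.41% of the 27785 promoters of the same length held. The other 5 member promoters held none of the 3 motifs in this window. In the 300 bases around the middle of its strongest peak, the MEIS2 promoter region held TGATTNAT, as did 1.57% of all promoter regions with a peak in every library. GC content ranged from 58.4% in the PKNOX2 promoter to 84.4% in the PBX3 promoter, beside a median of 54.8% over all promoters. In intron regions only the 300 bases around the middle of the strongest peak were searched, not the whole region. Among the 46 intron regions of the members with a peak in every library, 9 held TGACAG there (19.6%), beside 22.5% of all 27771 such intron regions. TGATTNAT was found in 3 of the 46 (6.52%, beside 6.12%) and TGATTGAC in 1 (2.17%, beside 0.457%). The shares for TGACAG and TGATTNAT were thus near those of all introns, and a match describes the letters only.

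Whole windows were compared first. The test was the edgeR quasi-likelihood test over 22992 gene windows with terms for stage and breed and Benjamini-Hochberg adjusted p. In this test 3 of the 6 members were lower at E28 than at E18 and none was higher. Of all windows tested, 22.0% were lower and 20.8% were higher (42.8% called in all). The median log2 fold change over the members was -0.41, beside -0.04 over all windows.

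MEIS1, which encodes a partner of both HOX and PBX proteins, had 193 CPM in both E18 libraries. At E21 it had 176 CPM in ZZ and 166 CPM in DZ, and at E28 it had 128 and 134.4 CPM. The E28 libraries lay below all the others, with a log2 fold change from E18 to E28 of -0.59 (SE 0.08, adjusted p = 0.00767). MEIS2, its close paralogue, had 187 and 202 CPM at E18, 191 and 182 CPM at E21, and 121 and 126 CPM at E28 (ZZ first here and below). Its fall came after E21, with a log2 fold change of -0.69 from E18 to E28 (SE 0.08, adjusted p = 0.00623) and -0.63 from E21 to E28 (SE 0.08, adjusted p = 0.0287). Without E18 DZ neither MEIS window passed the test between E28 and E18 (adjusted p = 0.0636 and 0.0561). The MEIS2 call between E28 and E21 held only without E28 ZZ and was lost when any of the other libraries was left out (adjusted p from 0.0502 to 0.17).

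Per kb called as peak, the PKNOX1 window held between 2.13 and 4.604 CPM and the PKNOX2 window between 5.27 and 9.95 CPM. PKNOX1, the widely expressed member of the pair, had 12.1 and 12.8 CPM at E18, 9.60 and 6.22 CPM at E21, and 4.50 and 4.31 CPM at E28. The log2 fold change of PKNOX1 from E18 to E28 was -1.54 (SE 0.29, adjusted p = 0.0139), though without either E18 library the call was lost (adjusted p = 0.0623 and 0.144). PKNOX2, a gene of 305484 bp, had 476 and 467 CPM at E18, 515 and 513 CPM at E21, and 481 and 453 CPM at E28. Its E28 levels lay on both sides of the E18 levels (log2 fold change -0.05, SE 0.06, adjusted p = 0.509).

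Neither PBX window passed the test. PBX2, which lies among densely packed genes on chromosome 7, had 20.9 and 21.1 CPM at E18, 20.1 and 19.5 CPM at E21, and 23.2 and 25.2 CPM at E28 (log2 fold change E28 against E18 0.17, SE 0.11, adjusted p = 0.244). PBX3 had 116 CPM in both E18 libraries, 132 and 123 CPM at E21, and 99.5 and 102 CPM at E28 (log2 fold change -0.24, SE 0.08, adjusted p = 0.0706). The E28 libraries were the lowest of the 6 for PBX3 and the highest for PBX2. No member was called between E21 and E18, where 1.99% of all windows were. At an unadjusted p under 0.05 there were 0 members, beside 6723 of all 22992 windows. DESeq2 called 2 members, beside 34.3% of all windows. Between E28 and E21 only MEIS2 was called, beside 5.91% of all windows, of which 4.91% were lower.

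**Figure D1:**
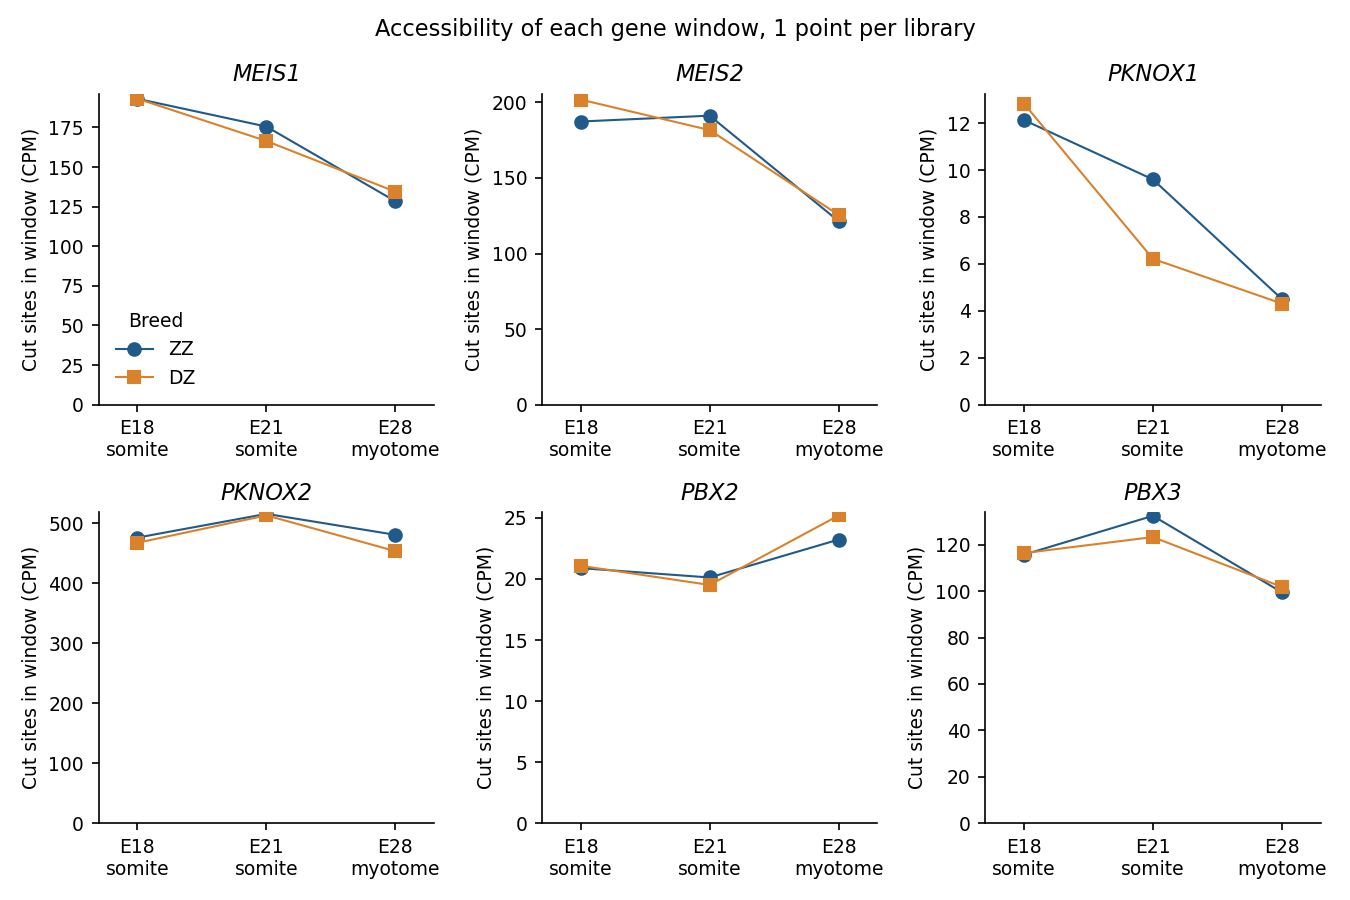
CPM in each gene window (y axis, from 0) at E18, E21 and E28 (x axis), 1 point per library, with ZZ as circles and DZ as squares; lines join libraries of a breed. MEIS1, MEIS2 and PKNOX1 are lowest in the E28 libraries, while PKNOX2 stays between 453 and 515 CPM.

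The bases called as peak changed with stage too. Peaks covered 46144 and 39361 bp of the MEIS1 window at E18 and 17961 and 18598 bp at E28. In MEIS2 the covered length went from 36346 and 32816 bp to 14822 and 15341 bp, and in PKNOX1 from 4602 and 4693 bp to 977 and 957 bp. Counts per covered kb moved the other way, from 4.18 and 4.91 to 7.15 and 7.23 CPM per kb in MEIS1. When covered length entered the fit as an offset, the median over all windows shifted to 0.55 and all 6 members were positive. Relative to that median, MEIS1 was at 0.07, MEIS2 at -0.06, PKNOX1 at 0.17, PKNOX2 at 0.25, PBX2 at 0.26 and PBX3 at 0.27 on the log2 scale. Single regions inside these windows could go the other way, as the MEIS2 region 63.5 kb into the gene went from 5.37 and 6.78 CPM per kb at E18 to 3.06 and 2.43 CPM per kb at E28.

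Promoters and the remaining regions were therefore separated. In MEIS1 the promoter regions summed to 66.1 and 67.1 CPM at E18 and to 72.2 and 83.6 CPM at E28. The other MEIS1 regions summed to 127 and 132 CPM at E18, 100.5 and 97.8 CPM at E21, and 56.2 and 50.8 CPM at E28. The promoter share of the counts in MEIS1 regions thus went from 34.3% and 33.6% to 56.2% and 62.2%. MEIS2 had the same shape, with promoter sums of 71.2 and 78.4 CPM at E18 and 88.9 and 96.7 CPM at E28, and sums over the other regions of 116 and 123 CPM at E18, 107 and 94.3 CPM at E21, and 32.5 and 28.8 CPM at E28. Its promoter share went from 38.0% and 38.8% to 73.3% and 77.0%. Regions were counted whole here, so these sums can exceed the level of a window that ends inside a region. A region without a called peak adds nothing to a sum. The other MEIS1 regions with a peak numbered 32 and 28 at E18 and 11 and 8 at E28. Peaks covered 35271 and 30720 bp of them at E18 and 10049 and 9656 bp at E28. In MEIS2 the numbers were 26 and 26 and then 10 and 11, with 26591 and 23222 bp and then 7049 and 6846 bp. How far the shares follow from the peaks called was not tested.

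In PBX3 the promoter went from 53.2 and 54.3 CPM at E18 to 65.8 and 71.7 CPM at E28, while the other regions went from 62.5 and 62.1 CPM to 33.7 and 30.1 CPM. PKNOX2 promoters summed to 129 and 133.7 CPM at E18 and 177 and 176 CPM at E28, beside 346 and 333 CPM and then 304 and 278 CPM in its other regions. PBX2 kept over 96% of its counts in its promoter regions in every library. In all 6 genes together the promoter share was 34.0% (ZZ) and 34.8% (DZ) at E18, 38.1% (ZZ) and 39.4% (DZ) at E21, and 49.8% (ZZ) and 53.6% (DZ) at E28. Over all genic regions of the genome the share also rose, but from 57.98% and 58.2% to 64.7% and 62.9%. These sums depend on the length called, and the difference between members and genome was not tested.

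**Figure D2:**
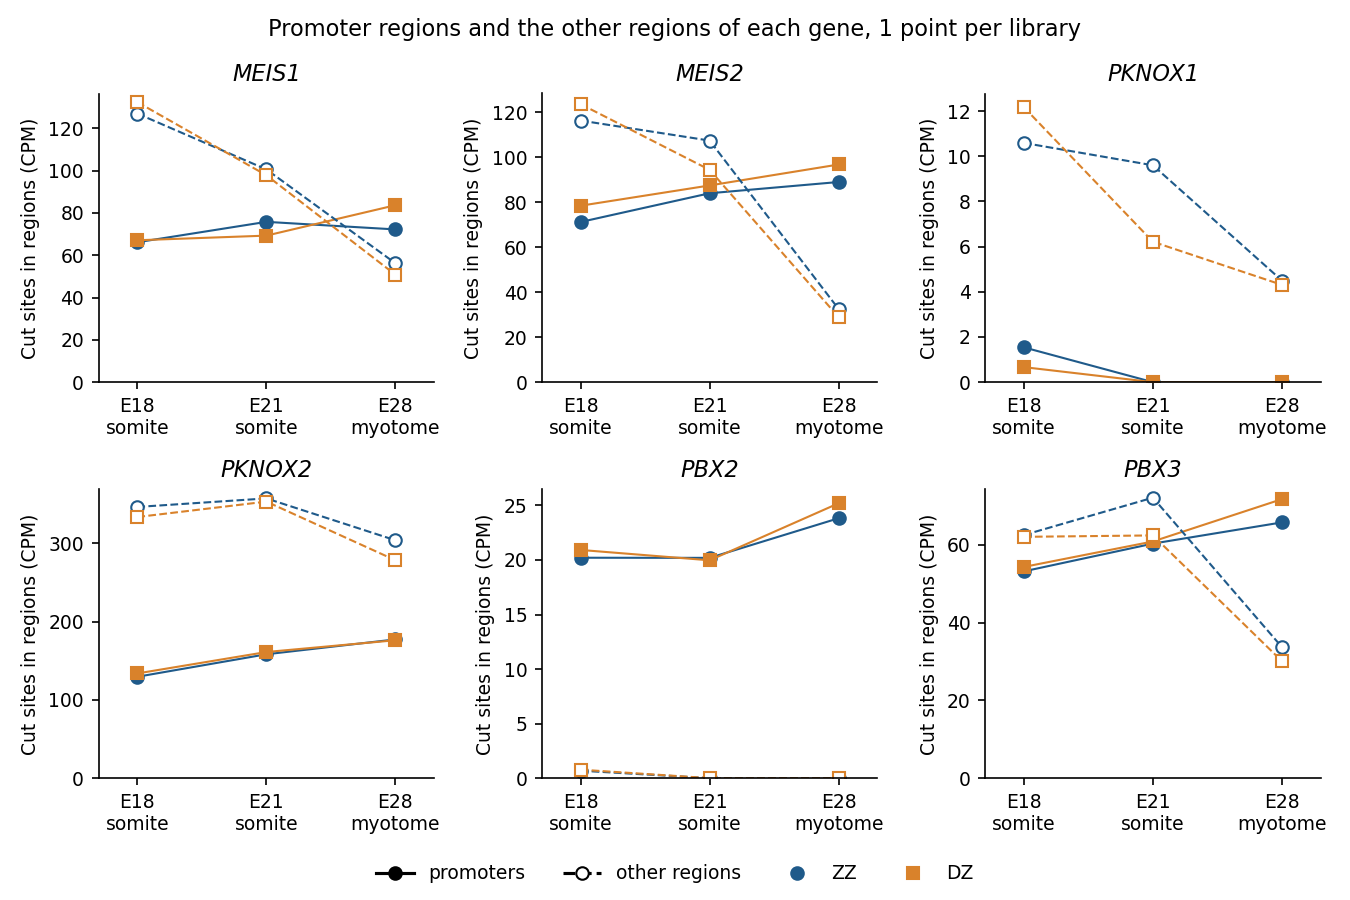
Summed CPM (y axis, from 0) in the promoter regions (filled, solid lines) and in the other regions (open, dashed lines) of each gene at each stage, 1 point per library, ZZ as circles and DZ as squares. In MEIS1, MEIS2 and PBX3 the other regions lie above the promoters in both E18 libraries and below them in both E28 libraries.

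Of the 58 regions with a peak in every library, 15 were lower and 9 higher at E28 than at E18. This was 41.4% called, beside 37.1% of the 78533 regions tested over the genome, of which 18.1% were lower and 19% higher. The 7 promoter regions, alternative promoters included, had 3 calls, all higher. Among promoter regions of the whole genome 23.1% were called higher and 17.1% lower. The 46 intron regions had 14 lower and 6 higher calls, beside 17.1% and 18.8% of all introns, and their median log2 fold change was -0.37, beside 0.00 over all introns. The 5 exon regions had 1 call, which was lower, beside 24.6% lower and 14.3% higher of all exon regions. Without E18 DZ only 8 of the 58 regions were called and without E18 ZZ 13, and leaving out any other library gave between 17 and 30. Over the genome 8740 of 78533 regions were called without E18 DZ, 21.6% without E18 ZZ and between 27.3% and 39.3% without one of the others.

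**Figure D3:**
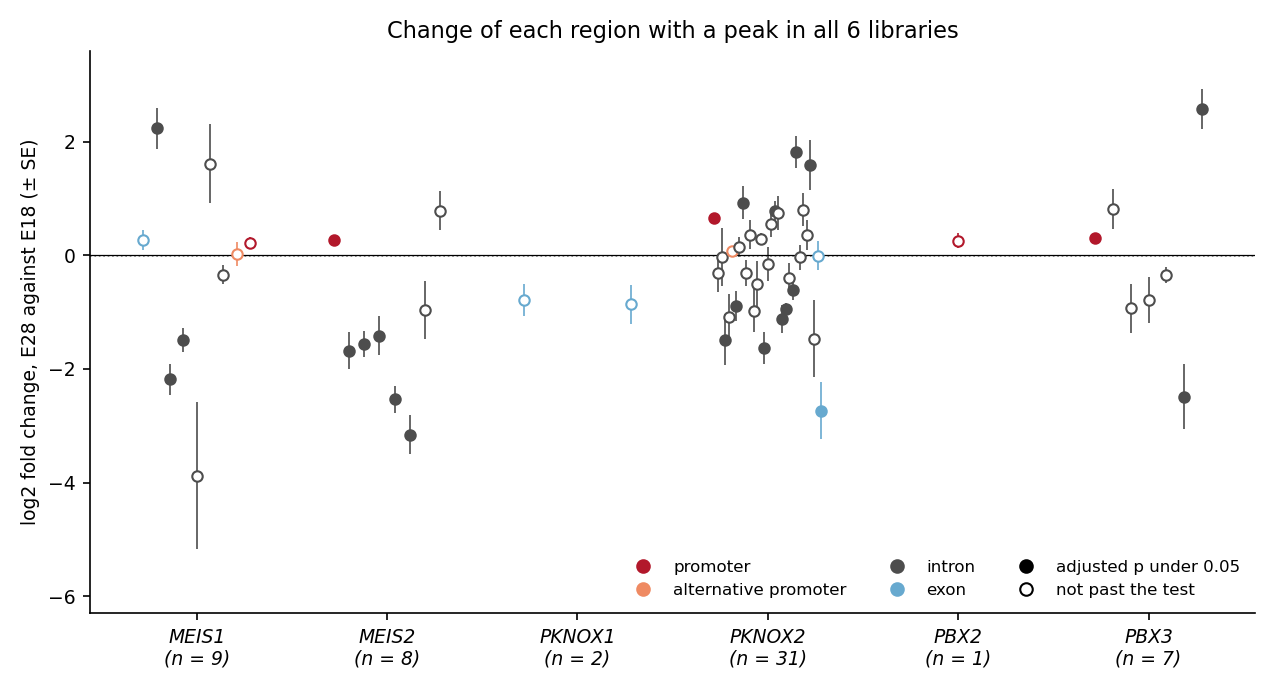
Log2 fold change between E28 and E18 with its SE (y axis) for each of the 58 regions with a peak in all 6 libraries, by gene (x axis) and kind of region (colour); filled points passed the edgeR test at adjusted p under 0.05. Called promoters lie above 0, and called intron regions of MEIS2 lie below 0.

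The MEIS1 promoter, chr3:75624129-75629971, had 52.1 and 53.1 CPM at E18, 57.9 and 56.0 CPM at E21, and 58.8 and 67.8 CPM at E28. Both E28 libraries were above the others, but the difference did not pass the test (log2 fold change 0.22, SE 0.10, adjusted p = 0.148). It was open in between 22.6% and 26.7% of barcodes of every library. The window of the uncharacterized gene LOC106509799 shares these peaks, so their counts belong to both. An alternative MEIS1 promoter 5.38 kb inside the gene had between 13.3 and 17.9 CPM with overlapping stages (log2 fold change 0.02, SE 0.21, adjusted p = 0.939).

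The MEIS2 promoter, chr1:134011027-134020860, was the widest at an annotated gene start and is shared with the window of LOC110259520. It had 71.2 and 78.4 CPM at E18, 83.9 and 87.4 CPM at E21, and 88.9 and 96.7 CPM at E28. The order of stages was the same in both breeds, and the change from E18 to E28 was called (log2 fold change 0.27, SE 0.08, adjusted p = 0.039). With covered length in the fit it was 0.52, or 0.09 above the median of all regions. The call was lost when any 1 library was left out (adjusted p from 0.0596 to 0.224).

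The PBX3 promoter, chr1:266380664-266385116, rose from 53.2 and 54.3 CPM through 60.3 and 60.9 CPM to 65.8 and 71.7 CPM (log2 fold change 0.31, SE 0.09, adjusted p = 0.0419). Its peaks were longer at E28 (4288 and 4281 bp) than at E18 (3575 and 3541 bp), and with covered length in the fit the change was 0.04 (adjusted p = 0.754). The call was also lost without either E18 library (adjusted p = 0.0819 and 0.287), either E21 library or E28 DZ. The PBX2 promoter, chr7:24225543-24228082, had 18.9 and 20.3 CPM at E18, 20.1 and 19.5 CPM at E21, and 23.2 and 25.2 CPM at E28 (log2 fold change 0.26, SE 0.13, adjusted p = 0.16). GPSM3 and AGER, which lie next to PBX2, share peaks with its window.

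The PKNOX2 promoter, chr9:52301992-52303635, had the largest change of the 7. It had 62.9 and 62.5 CPM at E18, 83.2 and 86.5 CPM at E21, and 99.8 and 103 CPM at E28. The stages did not overlap, the breeds of a stage differed by less than any step between stages, and the log2 fold change from E18 to E28 was 0.65 (SE 0.08, adjusted p = 0.00463). The covered length was nearly the same in every library, between 1627 and 1644 bp, and with it in the fit the change was 0.66 (0.23 above the median of all regions). The call held without any 1 of the 6 libraries and under every other setting tried. TMEM218, a membrane protein gene read in the opposite direction, starts within these peaks, so the counts cannot be assigned to one of the 2 genes. A second PKNOX2 promoter, 49.6 kb inside the gene at chr9:52347600-52357555, had between 66.6 and 77.4 CPM in all libraries (log2 fold change 0.08, SE 0.08, adjusted p = 0.454).

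At the annotated PKNOX1 start, the region chr13:206158563-206159313 had a peak at E18 only, with 205 and 83 counts. Whether this start is the one used in these cells was not checked, so the region is called a promoter by the annotation alone, and the PKNOX1 window would miss a first exon lying further upstream. The 2 PKNOX1 regions with peaks in every library lay in exons 3.45 and 7.44 kb into the gene and had between 1.54 and 4.92 CPM (log2 fold change E28 against E18 -0.79 and -0.87, adjusted p = 0.0715 and 0.0976).

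The largest called fall between E18 and E28 lay in a MEIS2 intron, and MEIS1 introns had 2 called falls. The MEIS1 region chr3:75549594-75553399, 74.4 kb into the gene, had 18.8 and 19.7 CPM at E18, 16.4 and 16.6 CPM at E21, and 5.85 and 8.44 CPM at E28. It was open in 10.3% and 11.11% of barcodes at E18 and in 2.96% and 4.21% at E28, and both the change from E18 (log2 fold change -1.49, SE 0.21, adjusted p = 0.00561) and that from E21 (-1.20, SE 0.21, adjusted p = 0.0351) were called. Of the 7 intron regions of MEIS2 with peaks in every library, 5 were called lower at E28 than at E18 and none higher, beside 17.1% and 18.8% of all intron regions. The MEIS2 region chr1:134093190-134095329 had 8.34 and 8.43 CPM at E18, 6.42 and 6.93 CPM at E21, and 1.28 and 0.70 CPM at E28 (log2 fold change -3.16, SE 0.34, adjusted p = 0.00338). A neighbour at chr1:134076128-134078248 had 11.08 and 9.55 CPM at E18, 10.7 and 8.18 CPM at E21, and 2.17 and 1.54 CPM at E28 (-2.54, SE 0.23, adjusted p = 0.00278). In both, the fall from E21 to E28 was called (adjusted p = 0.0249 and 0.0245), and the step from E18 to E21 was not (adjusted p = 0.466 and 0.582). These 3 regions were picked after their values were seen. Their E28 against E18 calls held without any 1 library. Peaks covered a mean of 1942.5 bp of the first MEIS2 region at E18 and 362 bp at E28, and 1736.5 and 672.5 bp of its neighbour. With covered length in the fit the change from E18 to E28 was -0.74 in the first MEIS2 region (adjusted p = 0.0158), -1.20 in its neighbour (adjusted p = 0.000267) and -0.74 in the MEIS1 region (adjusted p = 0.00203), beside 0.43 for the median of all regions.

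A different course was seen in the MEIS2 region chr1:134067090-134069520, 54.7 kb into the gene. It had 12.4 and 16.4 CPM at E18, 6.12 and 4.82 CPM at E21, and 3.82 and 7.54 CPM at E28 (log2 fold change E28 against E18 -1.41, SE 0.35, adjusted p = 0.025, lost without either E18 library at 0.0806 and 0.134). Both E21 libraries were already below E18, though that step did not pass the test (-1.42, SE 0.35, adjusted p = 0.0664). The MEIS1 region chr3:75502501-75503274, 123 kb into the gene near its 3′ end, was the one called rise among MEIS1 introns. It had 1.14 and 0.98 CPM at E18, 1.97 and 2.67 CPM at E21, and 5.76 and 4.62 CPM at E28, and its share of open barcodes went from 0.774% and 0.764% to 2.72% and 2.47%. The steps from E18 to E21 and from E21 to E28 were not called (adjusted p = 0.122 and 0.0956). No stage overlapped another. The log2 fold change of the region from E18 to E28 was 2.24 (SE 0.36, adjusted p = 0.00763), or 1.25 above the median of all regions with covered length in the fit. Without E18 DZ the adjusted p was 0.0671. The most open MEIS1 region outside promoters, in an intron 10.9 kb into the gene, had between 15.0 and 19.8 CPM and no call. Its log2 fold change from E18 to E28 was -0.34 (SE 0.16, adjusted p = 0.154). The MEIS2 counterpart, 42.8 kb in, fell from between 9.10 and 17.4 CPM in somite libraries to 5.64 and 5.59 CPM at E28. The change from E18 was called (-1.56, SE 0.22, adjusted p = 0.00569), but was -0.05 with covered length in the fit (adjusted p = 0.856).

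PBX3 held a region gained between E18 and E21. This region, chr1:266547633-266549046, lies 165 kb into the gene and had 0.39 and 0.63 CPM at E18, 5.93 and 7.02 CPM at E21, and 3.34 and 2.83 CPM at E28. It was higher at E21 than at E18 (log2 fold change 3.61, SE 0.36, adjusted p = 0.0186) and at E28 than at E18 (2.58, SE 0.35, adjusted p = 0.00523), while the step from E21 to E28 was not called (-1.03, SE 0.33, adjusted p = 0.1085). Peaks covered a mean of 248 bp of it at E18, 1061 bp at E21 and 560.5 bp at E28, and with covered length in the fit the changes from E18 were 1.57 at E21 and 1.42 at E28, beside medians of all regions of 0.08 and 0.43. It was chosen after its values were seen. A region 5.56 kb before it, chr1:266542360-266543195, had 3.46 and 3.01 CPM at E18, 4.38 and 4.45 CPM at E21, and 0.30 and 0.99 CPM at E28. It was lower at E28 than at either somite stage (log2 fold change -2.49 and -2.84, adjusted p = 0.0202 and 0.0438), and the E28 against E18 call was lost without E18 ZZ or either E21 library (adjusted p from 0.0519 to 0.0764). The size rested on single libraries, with -1.67 and -2.05 without E28 ZZ and -3.545 and -3.93 without E28 DZ, and with covered length in the fit it was -0.80 and -1.11. The most open PBX3 intron region, 145 kb into the gene, had between 17.2 and 23.6 CPM and no call (-0.35, SE 0.13, adjusted p = 0.0895).

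PKNOX2 introns went both ways, with 4 of 27 called higher and 6 lower, beside 18.8% and 17.1% of all intron regions. The region chr9:52559040-52560823, 257 kb into the gene, had 2.98 and 1.58 CPM at E18, 12.5 and 10.8 CPM at E21, and 10.6 and 5.93 CPM at E28. It was called higher at E21 (log2 fold change 2.36, SE 0.29, adjusted p = 0.0216) and at E28 (1.82, SE 0.28, adjusted p = 0.00707) than at E18, the latter lost without E18 DZ (adjusted p = 0.0574). The region chr9:52594378-52595341 had the same order of stages, with 0.62 and 0.73 CPM, 4.35 and 3.54 CPM, and 3.14 and 1.36 CPM (2.45 at E21, adjusted p = 0.0378, and 1.59 at E28, adjusted p = 0.0363). Its call at E28 held only without E28 DZ and was lost without any of the other libraries (adjusted p from 0.0837 to 0.239), with a change of 1.01 without E28 ZZ. With covered length in the fit, the changes at E21 and E28 were 1.17 and 1.46 in the first of these regions and 1.27 and 1.26 in the second. These 2 and the PBX3 region were the only member regions called between E21 and E18, 3 of 58 (5.17%), beside 6.59% of all regions, of which 4.8% were higher. Each of the 3 calls was lost without either E21 library or without E18 DZ. In those fits nearly all calls over the genome were lost too. A wide region at chr9:52521386-52529435 had 41.7 and 41.2 CPM at E18, 34.5 and 29.9 CPM at E21, and 23.3 and 21.3 CPM at E28 (log2 fold change E28 against E18 -0.94, SE 0.10, adjusted p = 0.00319). With covered length in the fit its change was -0.16 (adjusted p = 0.301). It was chosen after its values were seen. The most open intron region of the set, chr9:52443089-52447544, had 50.5 and 54.2 CPM at E18, 65.9 and 74.9 CPM at E21, and 59.4 and 73.5 CPM at E28, and was open in 21.8% to 30.2% of barcodes (log2 fold change E28 against E18 0.29, SE 0.10, adjusted p = 0.0706). Among falls with covered lengths within 1.5 times, the intron region that starts at chr9:52546500 was called lower at E28 than at E18 (-0.61). With covered length in the fit its change was -0.22 (adjusted p = 0.2975).

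**Figure D4:**
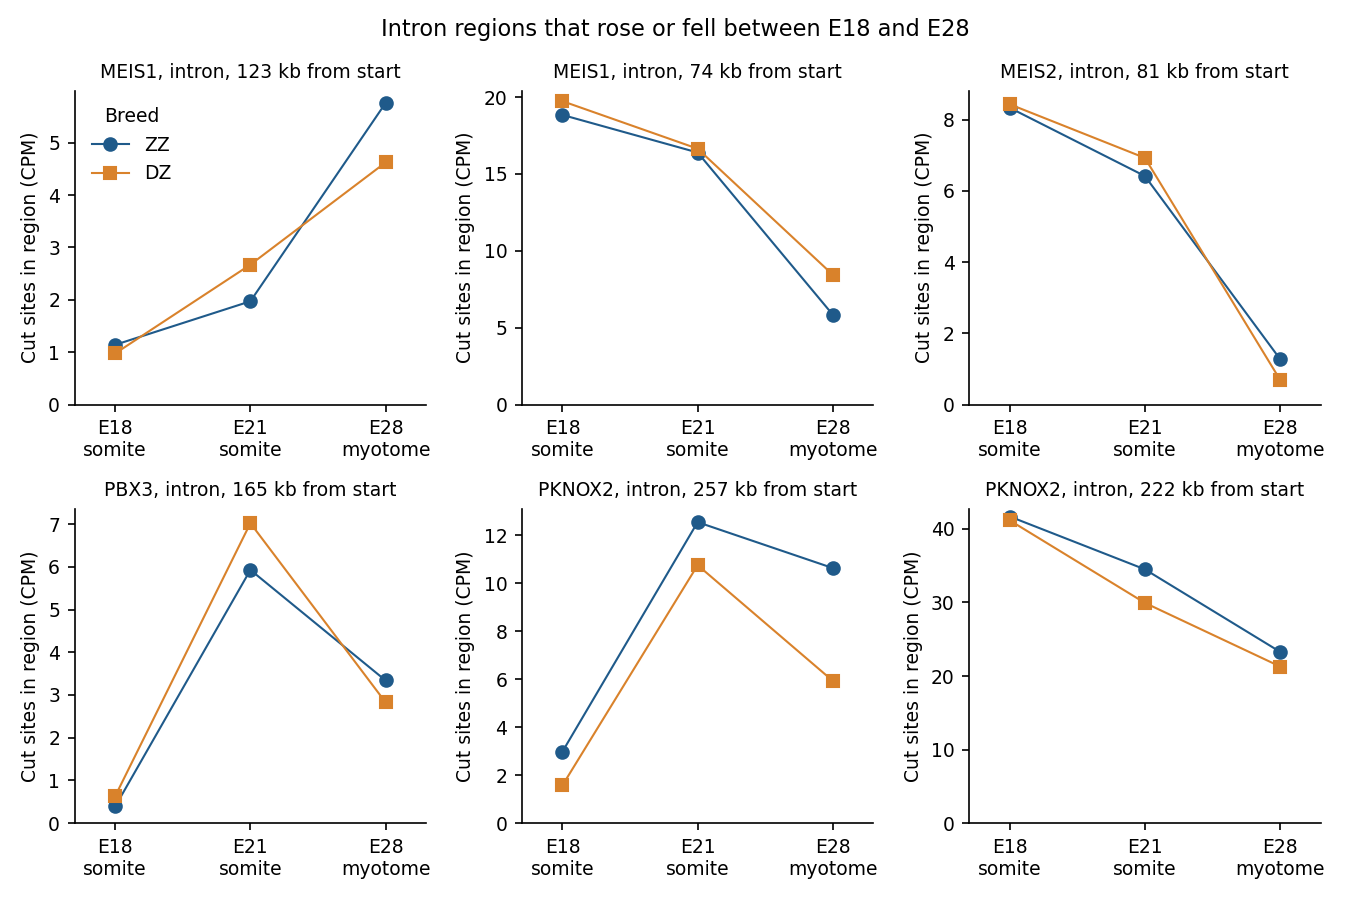
CPM (y axis, from 0) in 6 intron regions at each stage (x axis), 1 point per library, ZZ as circles and DZ as squares; titles give the distance from the gene start. The PBX3 region and the PKNOX2 region at 257 kb are highest at E21, the MEIS1 region at 123 kb is highest at E28, and the other 3 are lowest at E28.

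Between E28 and E21, 5 of the 58 regions were called (8.62%), all lower, beside 7.13% of all regions, of which 4.61% were lower. They were 1 of MEIS1, 2 of MEIS2, 1 of PBX3 and 1 of PKNOX2, all in introns and all named above. In the full fit of this comparison 22663 of all 78533 regions had an unadjusted p under 0.05. Without either E21 library none of the 58 regions was called, nor any region of the genome, and at an unadjusted p under 0.05 the full fit had 16.

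Covered length moved with these changes too. Of the 58 regions 47 were shorter at E28 than at E18, with a median ratio of 0.699, and all 15 regions called lower were among them. Across the 58 regions the log2 change in counts and the log2 ratio of covered length had a Pearson r of 0.82, and both come from the same libraries and peak calls. With covered length in the fit the median of all regions shifted to 0.43, with 45.8% of them called higher and 6.39% lower. Of the 15 lower regions, 14 stayed below that median and 7 were still called lower. Of the 9 higher regions, 8 stayed above it and were still called higher.

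**Figure D5:**
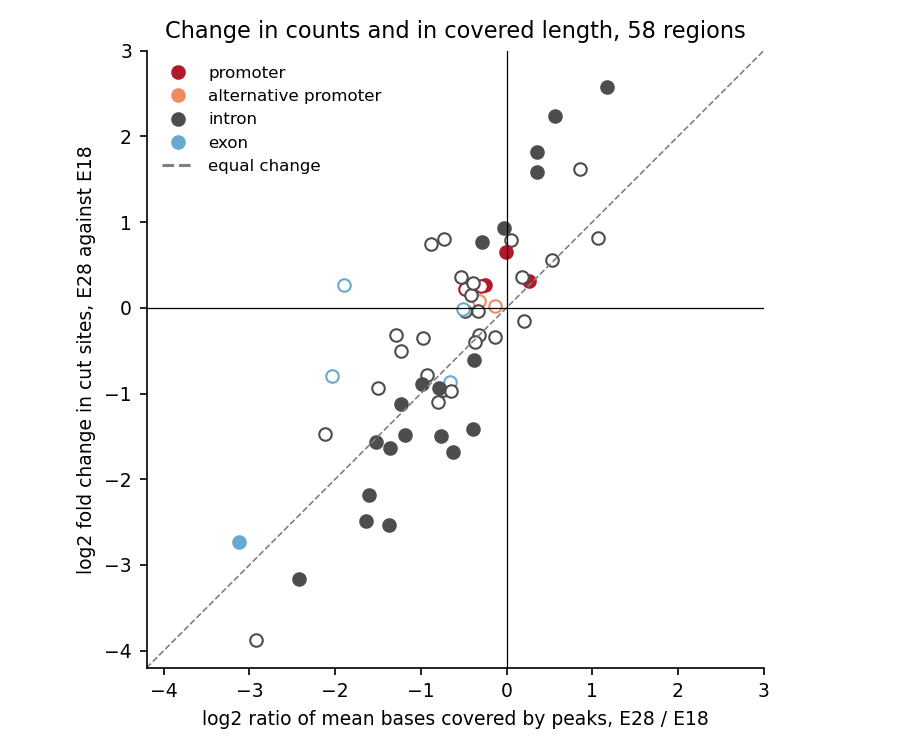
Log2 fold change in cut sites between E28 and E18 (y axis) against the log2 ratio of the bases covered by peaks (x axis) for the 58 regions; colours give the kind of region, filled points passed the edgeR test, and the dashed line marks equal change. All 15 regions called lower lie left of 0 on the x axis, and 5 of the 9 called higher lie right of it.

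Regions without a peak in every library were described by where peaks were called. Peaks in all 4 somite libraries and in neither myotome library were found at 38 of the 202 regions (18.8%), beside 9.14% of all regions. They were 10 in MEIS1, 7 in MEIS2, 9 in PBX3, 11 in PKNOX2 and 1 in PKNOX1, and 34 of them lay in introns. Peaks in all E21 and E28 libraries and none at E18 were found at 4 regions (1.98%, beside 2.99%). Peaks in both E18 libraries only were found at 21 regions (10.4%, beside 12.7%), in both E21 libraries only at 9 (4.46%, beside 2.21%) and in both E28 libraries only at 1 (0.495%, beside 2.23%).

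The strongest regions of a single stage were in introns. The MEIS1 region chr3:75554544-75556190 had 610 and 632 counts at E18 and was open in 2.60% and 3.09% of barcodes. The MEIS2 region chr1:134219465-134220953, 207 kb into the gene, had 480 and 393 counts at E21 and was open in 2.53% and 2.17% of barcodes. The one E28 region was in PKNOX2, chr9:52331436-52332136, with 369 and 218 counts and 2.03% and 1.26% of barcodes open. Its 300 bases shown above hold 2 overlapping matches to TGATTNAT. The motif was found in such a stretch of 6.12% of all intron regions with a peak in every library. No fold is given against the other stages, since their libraries had no peak there.

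Breed had no called effect. None of the 6 windows or 58 regions passed the test between DZ and ZZ, where 0.00435% of all windows and 0.0% of all regions were called. At an unadjusted p under 0.05 there were 0 windows and 5 regions (8.62%, beside 4.94% of all regions), and DESeq2 called none of the members, beside 2.29% of all windows and 0.202% of all regions. The log2 fold change between DZ and ZZ lay between -0.17 for PKNOX1 (SE 0.23) and 0.06 for PBX2 (SE 0.09), with the MEIS, PBX3 and PKNOX2 windows between -0.01 and 0.06 (SE from 0.05 to 0.07). PKNOX1 was the one window with a wide gap inside a stage, 9.60 CPM in ZZ and 6.22 CPM in DZ at E21. Over the 58 regions it lay between -0.93 and 0.54. Of the 5 regions under an unadjusted p of 0.05, 3 were lower in DZ at all 3 stages, namely the PBX3 region 139 kb into the gene (-0.93, SE 0.33) and the PKNOX2 regions at 133.35 kb (-0.87, SE 0.34) and 257 kb (-0.60, SE 0.23). The MEIS2 promoter (0.16, SE 0.06) and the strongest PKNOX2 intron region (0.25, SE 0.08) were higher in DZ at all 3 stages, and the adjusted p of each of the 5 was 0.847. The same libraries gave the p by which these 5 were chosen, so a shared direction over stages is not separate evidence. The widest gaps at E28 alone were in regions with few counts, 220 in ZZ and 5 in DZ in the MEIS1 region 55.5 kb into the gene and 110 and 29 in the PKNOX2 region at 293 kb. The PBX3 region at 159 kb was higher in DZ, with 27 counts in ZZ and 98 in DZ. In deeper regions, the MEIS2 region 85.1 kb into the gene had 8.12 CPM in ZZ and 2.06 CPM in DZ and the PKNOX2 region 37.0 kb into the gene had 12.6 and 4.004 CPM, while the 4 somite libraries lay between 7.62 and 8.73 CPM and between 13.9 and 15.99 CPM. These regions were chosen after their values were seen, and each gap rests on 1 library per breed. The gaps take no account of the length called as peak in each library.

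Other genes of the class and the HOX genes were counted as lists. Of 12 other TALE genes and PBX cofactors (PBX4, MEIS3, TGIF1, TGIF2, IRX1 to IRX6, MKX and the PBX-binding PBXIP1), 5 windows were lower and 2 higher at E28 than at E18, beside 22.0% lower and 20.8% higher of all windows. Their median log2 fold change was -0.21, beside -0.04 over all windows. The lower ones were MEIS3 (-0.63), IRX2 (-0.47), IRX3 (-0.64), IRX4 (-0.93) and IRX6 (-1.07), and the higher ones were MKX (0.53), a factor of tendon cells, and TGIF1 (0.36), a repressor of TGF-β signalling. In the fit with covered length, where the median of all windows was 0.55, MEIS3 (0.37) and IRX2 (0.49) were positive, and IRX3 (-0.16), IRX4 (-0.13) and IRX6 (-0.23) were no longer called. MKX was then at 0.29 and TGIF1 at 0.56. Of 36 HOX genes in the annotation, 7 windows were lower and 5 higher, counts not above those shares of all windows, and their median log2 fold change was 0.22. The lower ones included HOXB6 (-3.89), HOXA4 (-2.95) and HOXD3 (-2.65), and the higher ones HOXC10 (1.61), HOXC6 (0.94) and HOXA9 (0.90). The peaks counted for HOXB6 covered 55577 bp in E18 ZZ, far more than the gene, and 3141 bp in E28 ZZ. In the fit with covered length HOXB6 was at 0.15, HOXA4 at 0.63 and HOXD3 at 0.27, while HOXC10 was at 0.58, HOXC6 at 0.96 and HOXA9 at 0.904. HOXB1, picked after its values were seen, was the one of the 7 lower windows still negative (-2.27, and -0.92 with covered length). Windows of neighbouring HOX genes share peaks, so these counts are not independent.

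Marker windows of other cell types were summed as well. The 4 neural markers summed to 240 and 260 CPM at E18, 244 and 178 CPM at E21, and 108 and 150 CPM at E28, and 4 of 4 were lower at E28 than at E18. The 4 endothelial markers summed to between 145 and 156 CPM at E18 and between 92.6 and 99.3 CPM at E28 (3 of 4 lower), and the 3 epithelial markers to between 116 and 127 CPM and then to 57.0 and 57.1 CPM (2 of 3 lower). Myogenic markers summed to between 354 and 365 CPM at E18 and between 268 and 322 CPM at E28, with MYOG higher and PAX3 lower. The 4 somite markers summed to 203 and 191 CPM at E18 and 207 and 190 CPM at E28 (1 higher, 1 lower), the 4 sclerotome markers to 214 and 212 CPM and then 196 and 235 CPM (none called), and the 4 blood markers to 130.1 and 119.7 CPM and then 86.9 and 88.6 CPM (1 of 3 tested lower). Of all windows 22.0% were lower and 20.8% higher. These sums and calls take no account of covered length. The part of these cell types in the lower MEIS1, MEIS2 and PKNOX1 windows was not tested, and in libraries summed over cells a smaller share of open cells and less open chromatin per cell cannot be told apart.

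By the root mean square difference of centred log2 CPM over the 6 libraries, among 20472 windows, the windows most like MEIS1 were those of OXTR, the oxytocin receptor (0.033), and NEURL1 (0.035). For MEIS2 they were LEXM (0.044) and the ubiquitin ligase gene UBE3C (0.051), for PBX2 the amino acid transporter gene SLC1A5 (0.026) and the splicing factor gene HNRNPM (0.026), and for PBX3 ALOX5AP (0.042) and SPATA13 (0.043). RP1L1 (0.053) and PTI (0.059) were nearest to PKNOX1, and MRPL28 (0.021) and the potassium channel gene KCNK12 (0.023) to PKNOX2.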

How the data were processed

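Single-cell ATAC-seq libraries of 3 stages and 2 breeds were used, 6 in all. The authors processed reads with Cell Ranger ATAC 1.2.0 on Sscrofa11.1, called peaks separately in each library and deposited raw counts of Tn5 cut sites per peak and barcode without normalization, with the peak lists. Even numbers made up 90.1% to 92.4% of the entries above 0. The submitters' processing notes also name Signac 0.2.2 and Seurat 3.1.1. No doublet caller was run here and no cells were clustered, and the upper limit of 30000 counts was the only guard against doublets.

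Counts of kept barcodes were summed per library over regions (peaks merged at an overlap of 1 bp) and over gene windows (RefSeq gene body and 2 kb upstream, 27785 genes). Windows (22992 after filterByExpr) and regions with a peak in every library (78533) were tested with the edgeR 4.0.16 quasi-likelihood test (R 4.3.3, TMM, terms for stage and breed, 2 residual degrees of freedom left by 6 libraries), with Benjamini-Hochberg adjustment and a threshold of 0.05. With 1 library for each combination, an interaction term could not be fitted. The p-values rest on the spread that the stage and breed terms leave over in these libraries, with an estimate shared across features. Since each library is 1 pool of embryos, they do not measure the spread between embryos. SE is the absolute log2 fold change divided by the square root of F. The fits were tested on simulated data with known changes. A 4-fold change between E28 and E18 was recovered in 77.5% of 200 changed windows and 68.5% of 200 changed regions. Smaller changes were not simulated. Alternatives were RLE normalization, DESeq2 1.42.0, no filter on low counts, barcode limits of 4000 to 60000, a fit without the breed or stage term, covered length as an offset, peaks open in at least 1% of barcodes, regions covered by at least 50%, open barcodes in place of counts, and leaving out each library.

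Named were all 6 windows and, per gene, promoters with a peak in every library, the most open other region, up to 2 rises and 2 falls with covered lengths within 1.5 times, and the 2 windows most alike that share no peak. For each stage, the region with the most counts among those with peaks at that stage alone was also named, over the 6 genes together. Alternative promoters and regions called between E21 and another stage were added after values were seen, as were those marked so in the text. The members, gene lists and motifs were chosen with earlier results of these data known, and 1 gene of the TALE list is not reported here. Distances run from the annotated start to the middle of a region.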

Additional observations from a re-analysis of the deposited data

Results flagged for a closer look

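Between E18 and E28 the PKNOX2 window changed by 0.01 on the log2 scale in ZZ and by -0.04 in DZ, opposite directions that differ by 0.0577. The alternative promoter 5.38 kb inside MEIS1 changed by -0.07 in ZZ and by 0.18 in DZ, a difference of -0.2487 (ZZ minus DZ). Each value rests on 1 library per stage and breed, and neither difference was tested.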

How the results depend on the processing

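Of 541 alternative values for 38 log2 fold changes of windows and regions, 442 kept direction and side of the threshold, 72 lost and 14 gained the call, and 13 changed sign. Leaving out 1 library moved the count of called member windows between 0 and 3 (E28 against E18, 3 in the full fit) and between 0 and 1 (E28 against E21), and that of regions between 8 and 30 (E28 against E18, 24 in the full fit), 0 and 13 (E21 against E18) and 0 and 13 (E28 against E21). The fewest E28 against E18 calls came without E18 DZ, with 0 windows and 8 regions, then 13 regions without E18 ZZ. Over all windows and regions, too, the fit without E18 DZ made fewer E28 against E18 calls than the full fit. In the comparisons with E21 the calls over all regions also moved widely, below and above the full fit, with the library left out. The swings in the member counts therefore do not describe the members alone. DESeq2 called 2 windows and 11 regions at E21 against E18 and 5 windows and 12 regions at E28 against E21, beside 34.3% and 18.1%, and 34.8% and 19.7%, of all windows and regions. Without the breed term there were 3 windows (E28 against E21) and 5 regions (E21 against E18), and with open barcodes 3 and 6 for the same comparisons (7.8% and 7.37%, and 6.62% and 8.91%, of all). Stricter peaks gave 6 regions (E21 against E18) and 8 (E28 against E21), beside 13.8% and 14.9% of all. When peaks had to cover 50% of a region in every library only 25 regions were tested, with 8 and 2 calls at E28 against E18 and E21 (39.5% and 11.6% of all).

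With covered length as an offset, 6 windows were called at E28 against E18, all higher. In either direction, 5 windows and 18 regions were called at E28 against E21, and 10 regions at E21 against E18. The region calls included falls, such as -1.17 at E28 against E21 in the MEIS2 region that starts at chr1:134076128. Another was -1.15 at E21 against E18 in the MEIS2 region that starts at chr1:134067090. Of all windows 66.5% were then called higher at E28 against E18 and 43.4% called at E28 against E21, and of all regions 32.4% at E28 against E21 and 17.6% at E21 against E18, beside medians of all windows of 0.55, 0.34 and 0.19. Signs then changed for the windows of MEIS1 (0.61), MEIS2 (0.49, and 0.48 against E21), PBX3 (0.81), PKNOX1 (0.71) and PKNOX2 (0.80), the PBX3 intron region at 145 kb (0.63), the PKNOX1 exon region at 3.45 kb (1.24) and the PKNOX2 region at 222 kb against E21 (0.17), where covered length had fallen with the counts. The alternative MEIS1 promoter changed sign with stricter peaks (-0.0002), 50% overlap (-0.14) and without E28 DZ (-0.2512, in a leave-one-out range up to 0.2744), and the second PKNOX2 promoter with 50% overlap (-0.0823). The cause was not tested. Having 2 libraries per stage limits every test, and regions with few cut sites are limited by depth. The labels give no replicate numbers to pair by. The breed term already compared stages within breed, and the values without it are those given above.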
